A study of Homo sapiens with 4 samples.

Results

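The aryl hydrocarbon receptor (AhR), its partners and its classic target genes comprised 9 of the 11963 genes named in the expression table, chosen by name: AHR itself, the partners ARNT and PTGES3, and the targets CYP1A1, CYP1B1, TIPARP, NQO1, ALDH3A1 and UGT1A6. Expression was measured in LAPC4, an established androgen-sensitive human prostate cancer line, on 4 Affymetrix arrays, 1 per condition. The cells had been stably infected with a lentivirus and were cultured for 72 hours. GFP FCS cells carried the control GFP vector and grew in 10% fetal calf serum with 100 pM methyltrienolone, a synthetic androgen. GFP CSS cells carried the same vector and grew in 10% charcoal stripped serum, which is depleted of androgens. The cicb FCS and cicb CSS cells carried an shRNA against both β-TrCP1 (BTRC) and β-TrCP2 (FBXW11), substrate-binding subunits of an SCF ubiquitin ligase, in the same pair of media. The study's methods name the empty vector, which carries eGFP, as control, and its results describe an shRNA vector induced by doxycycline. Effects of the vector or of doxycycline therefore cannot be told apart from those of the shRNA. In whole cultures, fewer cells of a kind and less RNA per cell cannot be told apart either.

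The AhR is a transcription factor that waits in the cytoplasm in a complex with the chaperone HSP90 and its co-chaperone p23, the product of PTGES3. When a ligand such as a dioxin or a tryptophan metabolite binds, the receptor enters the nucleus, pairs with ARNT and binds DNA at elements with the core GCGTG, which raises transcription of detoxifying enzymes such as CYP1A1 and of feedback inhibitors such as TIPARP. In the prostate the AhR is known for its crosstalk with the androgen receptor.

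The promoters of the receptor and of 3 measured targets are shown because the targets differed in their signals between conditions. Each sequence is the RefSeq (GRCh38.p14) stretch of 250 bases before the first annotated start, in the direction of the gene, with GCGTG or its reverse complement CACGC in capitals.
AHR: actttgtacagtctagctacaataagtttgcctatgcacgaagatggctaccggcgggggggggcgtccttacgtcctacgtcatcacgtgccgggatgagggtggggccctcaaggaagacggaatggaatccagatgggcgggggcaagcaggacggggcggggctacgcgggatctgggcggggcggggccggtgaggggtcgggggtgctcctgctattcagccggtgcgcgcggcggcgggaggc
CYP1A1: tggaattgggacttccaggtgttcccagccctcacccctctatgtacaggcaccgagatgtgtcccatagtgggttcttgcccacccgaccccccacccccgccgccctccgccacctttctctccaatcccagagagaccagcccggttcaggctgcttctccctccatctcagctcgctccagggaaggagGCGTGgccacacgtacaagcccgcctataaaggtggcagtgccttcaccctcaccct
TIPARP: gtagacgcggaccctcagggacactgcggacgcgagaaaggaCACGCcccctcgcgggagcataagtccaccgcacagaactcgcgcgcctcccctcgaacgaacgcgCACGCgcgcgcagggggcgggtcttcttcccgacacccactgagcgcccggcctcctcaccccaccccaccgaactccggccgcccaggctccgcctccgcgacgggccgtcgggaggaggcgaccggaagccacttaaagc
NQO1: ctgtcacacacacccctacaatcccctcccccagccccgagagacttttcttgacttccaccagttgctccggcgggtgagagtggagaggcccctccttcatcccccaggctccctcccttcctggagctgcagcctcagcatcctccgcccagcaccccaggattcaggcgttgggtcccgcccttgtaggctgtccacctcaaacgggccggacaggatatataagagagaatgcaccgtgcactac
These lie at chr7:17298402-17298651 on the plus strand (AHR), chr15:74725529-74725778 on the minus strand (CYP1A1), chr3:156674340-156674589 on the plus strand (TIPARP) and chr16:69726561-69726810 on the minus strand (NQO1). CYP1A1 held 1 GCGTG, beginning 57 bases before the start. TIPARP held 2 on the opposite strand, beginning 208 and 142 bases before the start, and its other 2 annotated promoters held none. The windows of AHR and NQO1 held none. Of the 9 genes, 7 had a promoter in the RefSeq table, with 10 annotated promoters in all. The core was on either strand in 4 of these 10, 1 each of PTGES3, CYP1A1, TIPARP and UGT1A6, and in 32.2% of all 35116 promoters of this length. The longer TNGCGTG, which contains the core, was in UGT1A6 alone among the 7 and in 4.52% of all promoters. TGACNNNGC, the letters of the antioxidant element bound by NFE2L2, was in ARNT, PTGES3 and UGT1A6 and in 10.9% of all. CYP1B1 and ALDH3A1 had no entry. A match is a description of letters and not a binding site, and a window without one tells nothing about the factor.

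The 9 genes had 15 probe sets that the array annotation ties to 1 gene, of which 12 reached a signal of 20 on at least 1 array and 9 lay above this floor (log2 4.32) on all 4. Signals are given as quantile normalized log2 values. The spread quoted beside a change is the local spread, a robust SD of log2 changes on the same pair of arrays, taken over 1000 probe sets of similar signal. With 1 array per condition the changes have no replicate check and were not tested, and the number of arrays limits their precision. The 3 comparisons against GFP FCS share that array.

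FBXW11, the brighter shRNA target, gave 8.02 and 8.19 in GFP FCS and GFP CSS and 5.02 and 4.68 in cicb FCS and cicb CSS. Its other probe set changed less, by -1.34 in cicb FCS and -1.31 in cicb CSS against GFP FCS. BTRC gave 4.50 and 4.64 in GFP cells and lay at the floor in both cicb cultures. Its bound against GFP FCS was -0.18 in cicb FCS (spread 0.13) and in cicb CSS (spread 0.23), so the size of its change could not be measured. The cicb CSS array stood apart: its Pearson correlation over probe sets with the others was 0.946 to 0.948, against 0.985 to 0.992 among the other 3, and 35.0% of its probe sets lay under the floor before normalization, against 41.7% to 42.0%. The robust SD of all log2 changes was 0.24 for either single treatment and 0.53 to 0.56 for comparisons with cicb CSS. Before normalization the median over genes of cicb CSS against GFP FCS was -0.16, with 387 genes at least 2-fold higher and 1092 lower of 9070, against 0.03, 694 and 600 of 8700 after it. All 8 luminal prostate markers with a probe set were above the floor on all arrays. The androgen-induced genes did not move together with serum: in GFP CSS against GFP FCS, KLK3 changed by 0.74 and KLK2 by 0.70, and TMPRSS2 by -0.48 and FKBP5 by -0.88. Of 7 fibroblast markers 1 was above the floor on each of the other arrays (summed signal 31.9 to 34.3) and 4 on cicb CSS (130). No endothelial or leukocyte marker passed the floor on the other arrays, while 2 of 5 (53.3) and 1 of 4 (31.6) did on cicb CSS. The part of these markers and of this array's distribution in the changes of the AhR genes on cicb CSS was not tested.

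With β-TrCP shRNA in FCS, AHR and CYP1A1 were higher, NQO1 was lower, and ARNT and PTGES3 moved by no more than 0.09 on the log2 scale. AHR was 3.30-fold higher and CYP1A1 2.50-fold higher, while the 3 NQO1 probe sets were 1.40-fold to 2.12-fold lower. Of the 10 member probe sets with a change, 2 were higher by 2-fold or more and 1 was lower by as much. Over all probe sets 0.768% were that much higher and 0.384% that much lower (1.15% in all). The median log2 change of the members was -0.02, against 0.00 over all probe sets.

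**Figure D1:**
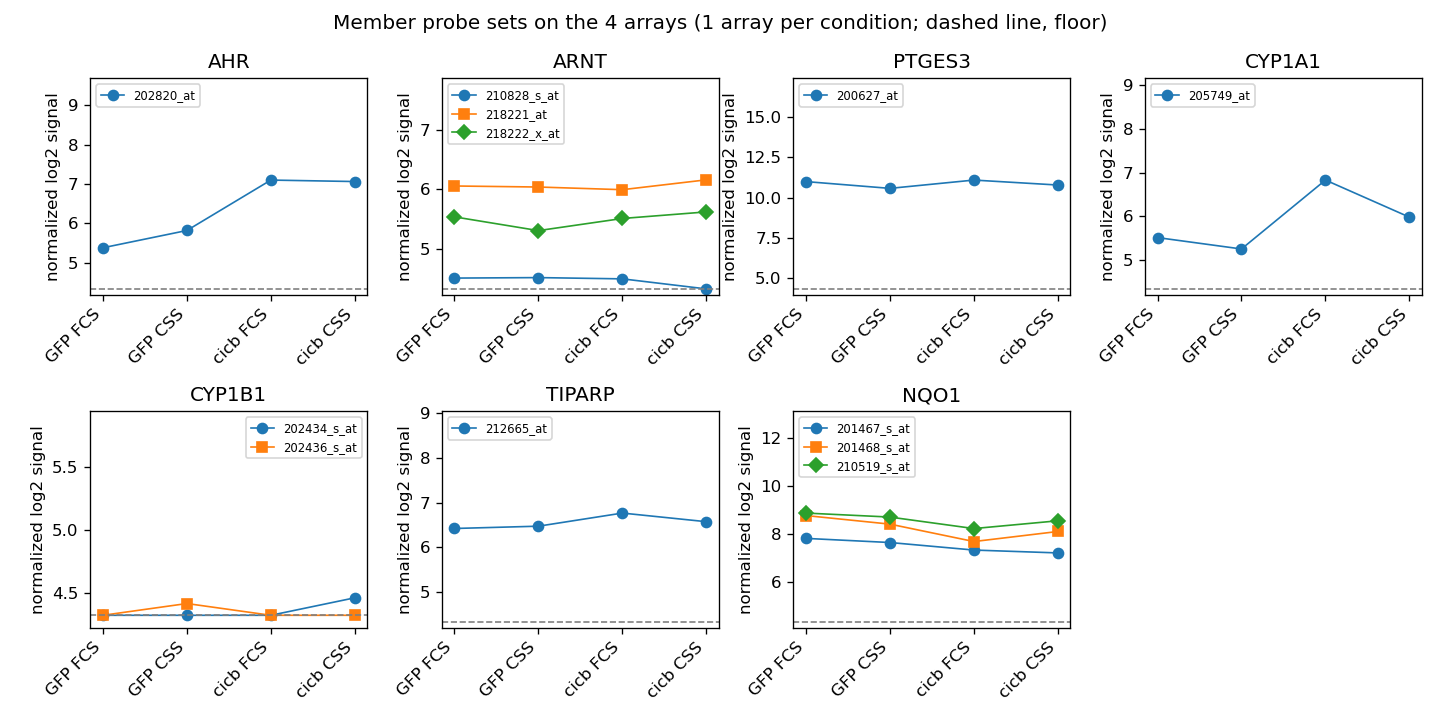
Normalized log2 signal (vertical axis) of the 12 probe sets that reached a signal of 20 on at least 1 array, 1 panel per gene, on the 4 arrays (horizontal axis). Each point is 1 array, lines only join the points of a probe set, and the floor of 4.32 is dashed. AHR is at 7.10 and 7.06 on the cicb arrays against 5.38 and 5.82 on the GFP arrays, CYP1A1 peaks at 6.83 in cicb FCS, and all 3 NQO1 probe sets are lower in cicb than in GFP cells.

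AHR, the receptor, was measured by 1 probe set. Its log2 signal was 5.38 in GFP FCS, 5.82 in GFP CSS, 7.10 in cicb FCS and 7.06 in cicb CSS. Both cicb arrays were thus above both GFP arrays, and the signals of the shRNA cells in the 2 media were nearly the same. The shRNA changed AHR by 1.72 in FCS (spread 0.32) and by 1.24 in CSS (spread 0.65, and 0.74 without normalization, less than 2-fold). The first of these changes ranked 20 from the highest of 11981 probe sets and the second 551 of 12989, since many more probe sets differed on the cicb CSS array. CSS in place of FCS changed AHR by 0.44 in GFP cells (spread 0.26, rank 656 of 11952) and by -0.04 in shRNA cells (spread 0.53). The last value became -0.59 without normalization between arrays, beyond its spread of 0.55. The linear signals of AHR were low, from 41.6 in GFP FCS to 137 in cicb FCS, and with a floor of 100 the shRNA change in FCS was bounded at 0.46 or more.

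ARNT, the DNA-binding partner, had 3 probe sets. The first (218221_at) gave 6.05, 6.03, 5.99 and 6.16 in GFP FCS, GFP CSS, cicb FCS and cicb CSS. The second (218222_x_at) gave 5.53, 5.30, 5.51 and 5.62. The conditions thus differed by at most 0.31 in either probe set. The shRNA changed ARNT by -0.06, -0.03 and -0.01 in FCS over the 3 probe sets, and CSS changed it by -0.02, -0.23 and 0.01 in GFP cells. The dimmest probe set (210828_s_at) was at 4.49 to 4.51 on 3 arrays and at the floor on cicb CSS. The sign of the ARNT changes on cicb CSS turned in at least 1 probe set without normalization (for 218221_at, from 0.10 to -0.29 against GFP FCS), so no direction is given for them.

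PTGES3, which encodes the p23 co-chaperone, gave 11.00 in GFP FCS, 10.58 in GFP CSS, 11.09 in cicb FCS and 10.79 in cicb CSS. It was lower in CSS than in FCS in both kinds of cells, by 0.42 in GFP cells (1.34-fold, spread 0.25, rank 792 from the lowest of 11952) and by 0.31 in shRNA cells (1.24-fold, spread 0.22). The shRNA changed PTGES3 by 0.09 in FCS and 0.21 in CSS, against a spread of 0.21 in each case. With a shared median in place of equal distributions, CSS changed PTGES3 by -0.18 in shRNA cells and the shRNA changed it by 0.39 in CSS, so which of these exceeded the spreads above depended on the scaling.

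CYP1A1, the monooxygenase that serves as the standard readout of AhR activity, had 1 probe set with log2 signals of 5.51, 5.25, 6.83 and 5.98 in GFP FCS, GFP CSS, cicb FCS and cicb CSS. On the linear scale these were 45.6, 38.0, 114 and 63.1. As for AHR, both cicb arrays were above both GFP arrays, but CYP1A1 was lower in CSS than in FCS whichever vector the cells carried. The shRNA changed CYP1A1 by 1.32 in FCS (spread 0.30, rank 42 from the highest of 11981) and by 0.73 in CSS, within the spread of 0.90. CSS changed it by -0.26 in GFP cells (spread 0.22) and by -0.85 in shRNA cells (1.80-fold, spread 0.71; -1.27 without normalization). With both treatments CYP1A1 was 1.38-fold above GFP FCS, a log2 change of 0.47 within the spread of 0.92 (0.14 without normalization). AHR was 3.21-fold above GFP FCS, with a change of 1.68 beyond its spread of 0.76 (1.24 without normalization).

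TIPARP, a mono-ADP-ribosyltransferase that is induced by the AhR and represses it, gave 6.42, 6.47, 6.77 and 6.57. Its highest signal was also in cicb FCS, 1.27-fold above GFP FCS (log2 change 0.34, spread 0.28, rank 1249 of 11981). CSS changed TIPARP by 0.05 in GFP cells and by -0.19 in shRNA cells (spread 0.65). With both treatments its change against GFP FCS was 0.15, which became -0.32 without normalization, so that its direction on this array depends on the scaling.

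NQO1, a quinone reductase induced by the AhR and by the antioxidant factor NFE2L2, had 3 probe sets above the floor on every array. The brightest (210519_s_at) gave 8.88, 8.72, 8.24 and 8.56 in GFP FCS, GFP CSS, cicb FCS and cicb CSS. The second (201468_s_at) gave 8.78, 8.42, 7.70 and 8.11, and the dimmest (201467_s_at) gave 7.83, 7.65, 7.34 and 7.22. In each of the 3, both cicb arrays were below both GFP arrays, the opposite order to AHR and CYP1A1. The shRNA changed them in FCS by -0.65 (spread 0.32), -1.08 (spread 0.34, rank 32 from the lowest of 11981) and -0.49 (spread 0.35). In CSS the shRNA changed them by -0.16, -0.31 and -0.43, each within its spread (0.34, 0.36 and 0.44). Without normalization these were -0.53, -0.76 and -0.97, so the sign was kept under either scaling and the size was not. With both treatments they were -0.32, -0.66 and -0.61 against GFP FCS, and -0.73, -1.11 and -1.14 without normalization. CSS in GFP cells changed them by -0.17, -0.36 and -0.17, with spreads of 0.31, 0.32 and 0.30.

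CYP1B1, the other AhR-induced monooxygenase of its family here, had 4 probe sets, all near or under the floor. Their deposited log2 values ran from 3.77 to 4.61. The only signals above the floor after normalization were 4.46 in cicb CSS (202434_s_at) and 4.42 in GFP CSS (202436_s_at), and the first of these was at least 1.10-fold above GFP FCS. No probe set of CYP1B1 was above the floor in cicb FCS, where AHR and CYP1A1 had their highest signals. ALDH3A1, an aldehyde dehydrogenase, was under the floor on all 4 arrays, with deposited values of 3.92, 3.77, 4.27 and 4.09. UGT1A6, a glucuronosyltransferase, shares its last exons with the other genes of its locus, and its 5 probe sets are annotated to several of them, so no level is given for UGT1A6. On these dim probe sets a change could not be measured, which is not evidence that the genes were off.

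**Figure D2:**
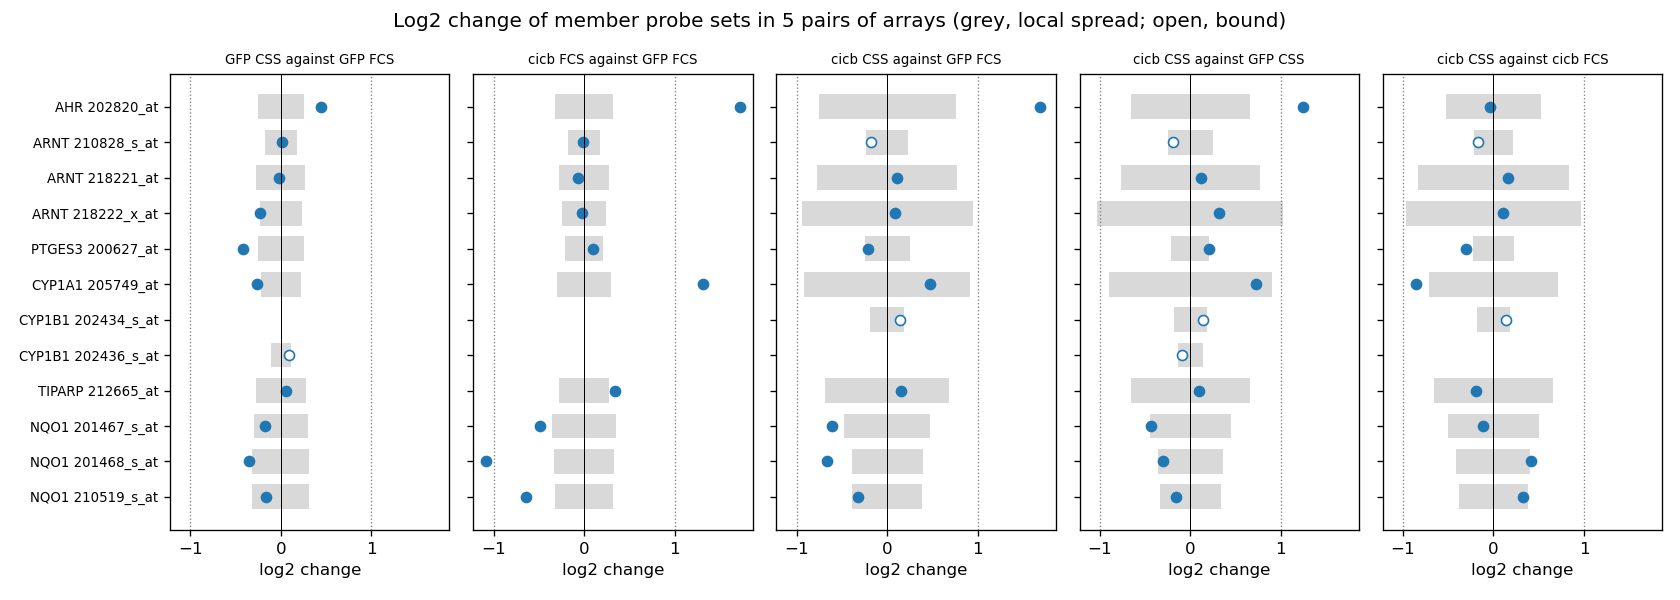
Log2 change (horizontal axis) of each member probe set in the 5 pairs of arrays, 1 panel per pair, with the local spread as the grey bar around 0, bounds as open symbols and dotted lines at 2-fold. In cicb FCS against GFP FCS, AHR (1.72) and CYP1A1 (1.32) lie far to the right and NQO1 (-1.08 to -0.49) to the left, and the grey bars are wider in the panels with cicb CSS.

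Over the members, CSS alone (GFP CSS against GFP FCS) left 0 of 11 probe sets at least 2-fold higher or lower, against 0.167% of all probe sets higher and 0.268% lower (0.435% in all). Their median change was -0.17, against 0.01 over all, and 4 of the 11 lay beyond their spread (AHR, CYP1A1, PTGES3 and 1 probe set of NQO1), as did 32.3% of all probe sets. With both treatments 1 of 11, AHR, was at least 2-fold higher than in GFP FCS and 0 were 2-fold lower, against 7.21% and 7.37% of all probe sets (14.6% in all). Without normalization this became 1 higher and 2 lower, the latter both of NQO1. The median was 0.08, against 0.00 over all. Against GFP CSS, 1 of 12 was at least 2-fold higher in cicb CSS and 0 were lower (all probe sets 7.15% and 7.1%, 14.3% in all). The former was again AHR, whose change was 0.74 without normalization, less than 2-fold. Against cicb FCS 0 of 11 differed 2-fold (all probe sets 7.08% higher and 7.33% lower, 14.4% in all). On this array 1 of 11 or 12 is a share near that of all probe sets.

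The log2 changes of the single treatments were also summed and set beside the change with both, as a description that rests on all 4 arrays, including cicb CSS. AHR had a sum of 2.16 and a change with both of 1.68, a difference of -0.48 that was -1.09 without normalization. For CYP1A1 the sum was 1.06 and both treatments gave 0.47, a difference of -0.59 (-0.99 without normalization). TIPARP differed from its sum by -0.24 (-0.80 without normalization). The receptor and these 2 targets were thus below their sums under either scaling. No spread was computed for these differences. The normalized ones were smaller than the spreads of AHR, CYP1A1 and TIPARP in cicb CSS against GFP FCS alone (0.76, 0.92 and 0.68). Both scalings rest on the same cicb CSS array, so a departure from the sum was not tested. NQO1 was above its sum by 0.49 in 210519_s_at and 0.78 in 201468_s_at, but by 0.10 and 0.29 without normalization, and the difference of 0.05 in 201467_s_at became -0.48. The differences of PTGES3 (0.11) and of ARNT in 218221_at (0.18) also turned sign without normalization, to -0.01 and -0.24, so no direction is given for them.

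An additive model of serum and shRNA, fitted with limma over 13226 probe sets, leaves 1 residual degree of freedom and counts any interaction as error. For the shRNA it called 2 of the 12 member probe sets, against 3.24% of all probe sets (1.4% higher and 1.84% lower). AHR was higher by 1.48 (SE 0.42, limma adjusted p 0.0192), and NQO1 was lower in 201468_s_at, with a change of -0.70 (SE 0.16, limma adjusted p 0.00163). NQO1 was not called in 210519_s_at (limma adjusted p 0.124) or in 201467_s_at (limma adjusted p 0.367). CYP1A1 had an effect of 1.03 (SE 0.52) with a limma adjusted p of 0.421, and of 0.034 when the filter on dim probe sets was raised to a signal of 100. CYP1A1 met that raised filter only through cicb FCS (deposited signal 125, against 47.1, 39.0 and 52.1 in GFP FCS, GFP CSS and cicb CSS). AHR met it only through the cicb arrays. The raised filter thus kept both genes only where they were high, and no conclusion is drawn from the limma adjusted p of 0.034. For CSS the model called PTGES3, at -0.36 (SE 0.09, limma adjusted p 0.00363), against 2.31% of all probe sets (0.968% higher and 1.35% lower), and AHR had an effect of 0.20 (adjusted p 0.929). The variances came from a trend on mean signal alone. Without that trend limma called 0 of 13226 probe sets for either factor, with 563 and 476 at an unadjusted p below 0.05. Over 7 alternatives the limma adjusted p for the shRNA ran from 0.00017 to 0.748 for AHR, with 3 of 7 under 0.05, and from 0.034 to 0.748 for CYP1A1. For NQO1 it ran from 0.00439 to 0.748 in 201468_s_at, from 0.137 to 0.748 in 210519_s_at and from 0.164 to 0.748 in 201467_s_at. For CSS it ran from 0.000896 to 0.733 for PTGES3. The ranges include the raised filter, so no conclusion is drawn from the low ends for AHR and CYP1A1.

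The other genes of the pathway are described by lists, each gene by its brightest probe set and with genes at the floor on 1 array at their bound. Of 22 other subunits and regulators of the AhR complex 17 were measured, and 0 of 17 were at least 2-fold higher or lower than GFP FCS in any of the 3 conditions (all genes 0.301% in GFP CSS, 1.2% in cicb FCS and 14.9% in cicb CSS). Their median change was 0.24 in GFP CSS (14 higher, 3 lower) and 0.13 in cicb FCS (12 higher, 5 lower), against 0.02 and 0.00 over all genes. In cicb CSS it was -0.04, and -0.38 without normalization with 14 of 17 lower, where the median of all genes was -0.16 and 59.8% of them were lower. HSP90AB1, the chaperone that holds the receptor, gave 11.09, 11.19, 11.63 and 11.42 in GFP FCS, GFP CSS, cicb FCS and cicb CSS. It changed by 0.54 with the shRNA in FCS, and its other probe set by 0.64. KLF6, a zinc-finger factor that can pair with the AhR, changed by 0.12 in cicb FCS and 0.54 in cicb CSS (0.07 without normalization), the kinase SRC by 0.52 and -0.55 in its brightest probe set but not with the same signs in its others, and RB1, the retinoblastoma protein, by -0.79 in cicb CSS. The cicb CSS changes of KLF6, SRC and RB1 lay within their spreads of 0.75, 1.26 and 0.94.

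Of 24 other AhR targets 13 were measured. Their median changes were 0.10, 0.09 and -0.18 in GFP CSS, cicb FCS and cicb CSS, and the last became 0.01 when arrays were only set to 1 shared median. In cicb FCS, where AHR and CYP1A1 were highest, 0 of 11 were at least 2-fold higher, against 0.802% of all genes, and 7 of the 11 were higher by any amount, against 49.9% of all genes. HES1, a repressor in Notch signalling, gave 6.34, 6.71, 6.96 and 6.90, so that its change was 0.61 in cicb FCS and 0.55 in cicb CSS, the latter 0.05 without normalization. The change of HES1 in cicb CSS lay within its spread of 0.65. MT2A, a metallothionein, gave 8.50, 7.37, 8.59 and 7.92 and was 2.19-fold lower in GFP CSS, where 1 of 12 targets was that much lower and 0 higher (all genes 0.138% and 0.163%). The 2 that were at least 2-fold higher in cicb CSS, against 7.98% of all genes, were XDH, xanthine dehydrogenase (4.39 in GFP FCS and 6.34), and the cytokine IL1B (at the floor on the other 3 arrays and at 5.62, at least 2.46-fold higher), which was named after its value was seen. IL1B passed the filter only through cicb CSS, where it was then counted as higher. Its bound (log2 change 1.2967) lay within its spread of 1.2985. The cell-cycle inhibitor CDKN1B changed by -0.64 in cicb CSS, within its spread of 0.87.

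NFE2L2 controls NQO1 as well, and 13 of 18 of its other antioxidant targets and partners were measured. Their medians were 0.03 in GFP CSS, 0.03 in cicb FCS and 0.19 in cicb CSS. The first became -0.01 and the last -0.16 without normalization. In cicb FCS, where NQO1 was lowest in 2 of its 3 probe sets, 0 of 11 were at least 2-fold lower, against 0.401% of all genes, and 4 of the 11 were lower by any amount, against 49.9% of all genes. By its brightest probe set, the rule used for the list, NQO1 (-0.65) was not 2-fold lower either. TXNRD1, thioredoxin reductase, gave 8.22, 7.99, 7.85 and 7.05. TALDO1, transaldolase, changed by -0.28 in cicb FCS and -0.45 in cicb CSS, and PGD, of the pentose phosphate pathway, by 0.45 and 0.19 (the latter within its spread of 0.38, and -0.16 without normalization). In cicb CSS 3 of 13 were at least 2-fold lower (TXNRD1, GCLC of glutathione synthesis and the small Maf factor MAFF, a bound in a probe set at the floor on cicb CSS while its other probe set changed by 0.15) and 1 higher (the transporter ABCC2), against 6.9% and 7.98% of all genes, with MAFF and ABCC2 named after their values were seen. ABCC2 was at the floor on the other arrays and passed the filter only through cicb CSS. Its bound (log2 change 1.08) lay within its spread of 1.18.

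Among other phase I and phase II enzymes 22 of 32 were measured, with medians of 0.03, -0.02 and 0.36, and 0.09 for the last without normalization. With either single treatment 0 of 21 were 2-fold higher or lower (all genes 0.301% in GFP CSS and 1.2% in cicb FCS). In cicb CSS 4 of 19 were at least 2-fold higher and 1 lower, against 7.98% and 6.9% of all genes. The glutathione transferases GSTM1 (1.99) and GSTM2 (1.57), CYP2D6 (1.40) and ALDH3A2 (1.06, named after its value was seen) were the higher ones and the acetyltransferase NAT1 (-1.39) the lower one. Their spreads were 0.89, 1.25, 1.05, 0.38 and 1.24. GSTM1, GSTM2 and CYP2D6 were dim in GFP FCS (4.88, 4.35 and 4.76), and GSTM2 was at the floor in GFP CSS and cicb FCS. NAT1 was near the floor in cicb CSS (4.44). The part of the cicb CSS array in these changes was not tested. The other probe set of GSTM1 changed by 1.70, that of CYP2D6 by 0.40 and those of ALDH3A2 by 0.82 and 0.26. Without normalization ALDH3A2 changed by 0.74, less than 2-fold. Of 14 other genes of the bHLH-PAS family, to which AHR and ARNT belong, 9 were measured, with medians of 0.04, 0.08 and 0.19, and -0.12 for the last without normalization. None of the 9 was 2-fold higher or lower in GFP CSS or cicb FCS. In cicb CSS PER2, a clock gene, changed by -1.68 in its brightest probe set and by at least 1.19 in its other. SIM2 changed by -0.80, within its spread of 1.23, and its other probe set by at least 1.52. NPAS1 changed by 0.70, within its spread of 1.22. The hypoxia factor EPAS1 changed by 0.63 (spread 0.43, and 0.18 without normalization), and its other probe set by 0.21. The probe sets of PER2 and SIM2 thus disagreed in sign.

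**Figure D3:**
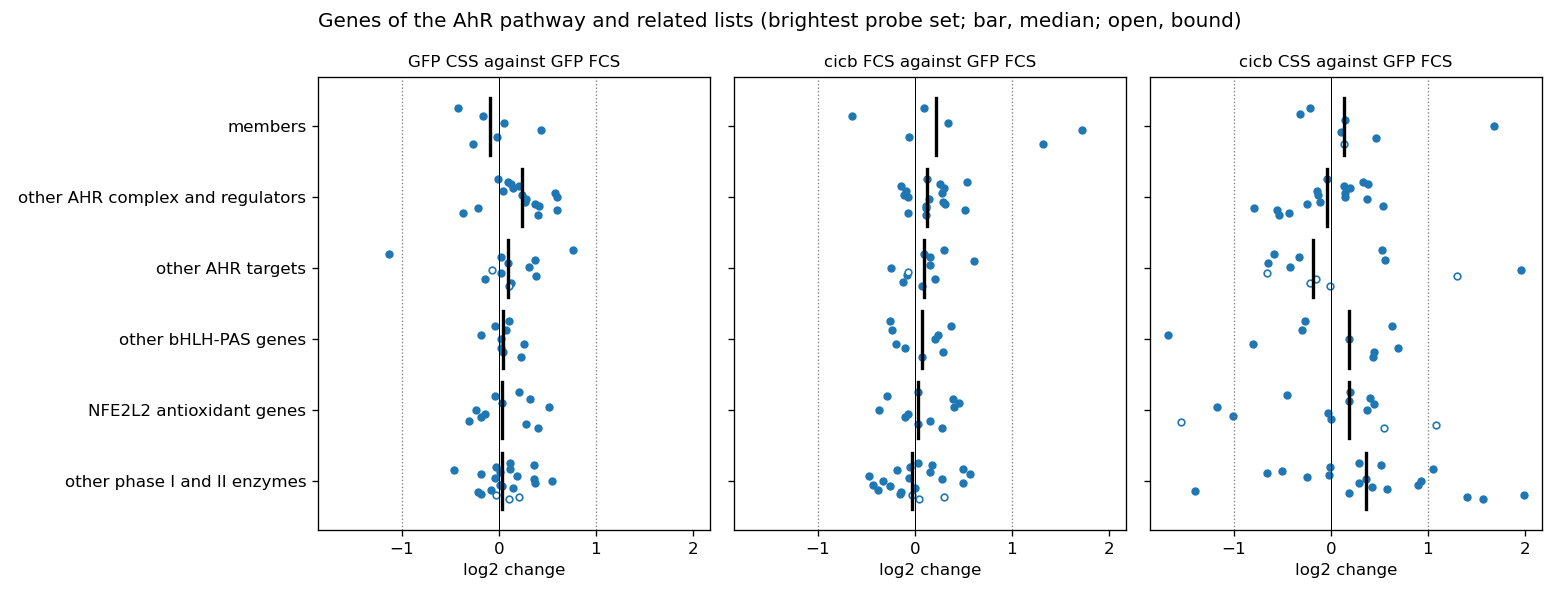
Log2 changes against GFP FCS (horizontal axis) of the genes of each list (vertical axis), 1 point per gene by its brightest probe set, with bounds as open points, the list's median as a bar and dotted lines at 2-fold, for GFP CSS, cicb FCS and cicb CSS. In cicb FCS AHR (1.72) and CYP1A1 (1.32) are the only points of these lists past 2-fold, and the scatter is wider in every list for cicb CSS.

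The 5 genes whose changes against GFP FCS were nearest to those of AHR were found over 10061 probe sets above the floor on all arrays, by Euclidean distance over 3 log2 changes. ROBO1, a guidance receptor, was nearest (distance 0.230), with changes of 0.64 in GFP CSS, 1.71 in cicb FCS and 1.58 in cicb CSS. GJA1, the gap junction protein connexin 43, followed (distance 0.281) with changes of 0.47, 1.83 and 1.42. STXBP6 (0.26, 2.10 and 1.58), TPD52L1 (0.44, 1.47 and 1.34) and the pseudogene ANXA2P2 (0.39, 1.40 and 2.01) came next, the last of which is nearly identical to ANXA2 and may share its signal. They were chosen on these 3 changes, which share 1 control array, so their likeness to AHR is a description.

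**Figure D4:**
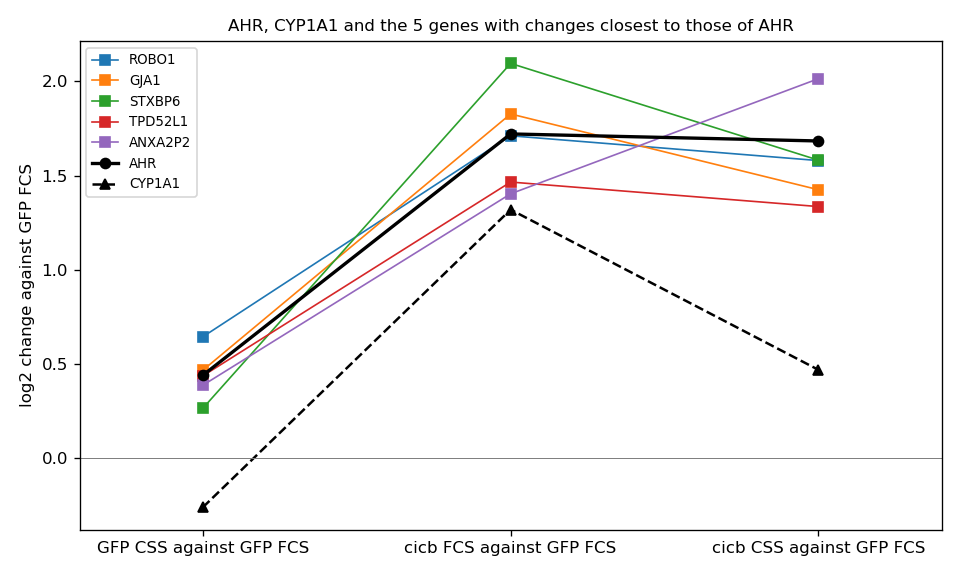
Log2 change against GFP FCS (vertical axis) of AHR, CYP1A1 (dashed) and the 5 genes nearest to AHR, in GFP CSS, cicb FCS and cicb CSS (horizontal axis); each point is a difference of 2 arrays and lines only join the points of a gene. AHR runs from 0.44 to 1.72 and 1.68, and ROBO1 (0.64, 1.71 and 1.58) follows it most closely, while CYP1A1 is at 0.47 in cicb CSS.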

How the data were processed

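The authors deposited log2 values of 22277 probe sets on 4 arrays, made with MAS5 from 6 µg of RNA per the labels. The study's methods name a minimum signal of 20 and quantile normalization, but the deposited columns do not share a distribution, so both steps were applied here. After 62 control probe sets were removed, 15643 reached a signal of 20 on at least 1 array, 13723 of them with 1 gene (9193 genes). They were quantile normalized and set to a floor of 20. A probe set at the floor on 1 array of a pair has a bound, and on both no change. Of all probe sets, 19070 list 1 gene, 1043 several and 2164 none. Symbols were updated through RefSeq (19058 matched).

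The rule of size was 2-fold. The local spread was 1.4826 times the median absolute deviation over 1000 probe sets. The additive model used limma 3.58.1 in R 4.3.3, with Benjamini-Hochberg adjustment over 13226 probe sets at 0.05. The remaining steps ran in Python 3.11.15 (numpy 2.4.6, pandas 2.3.3). The limma fit, quantile normalization, log2 changes and local spread were also run on simulated data. There every array had the same noise, so an array that stands apart, like cicb CSS, was not covered. The other steps were not run on simulated data. The members and lists were chosen with earlier results of these data known. From each other list up to 4 genes with the largest change of cicb FCS or cicb CSS against GFP FCS were named, besides the shRNA targets, the androgen checks and the 5 genes nearest to AHR. As alternatives, arrays were left as deposited or set to a common median, and results were taken with no floor, a floor of 100, no filter, a signal of at least 100, normalization without cicb CSS, 3-fold and limma without the trend. The labels do not say whether the cultures were independent.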

Additional observations from a re-analysis of the deposited data

Results flagged for a closer look

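The change of NQO1 (201468_s_at) with CSS went in opposite directions in the 2 kinds of cells, at -0.36 in GFP cells and 0.42 in shRNA cells on the log2 scale. Each value lay beyond its local spread (0.32 and 0.41). Each is a difference between single arrays, so the difference between them was not tested. The values as deposited gave -0.06 in shRNA cells. The other NQO1 probe sets changed with CSS by -0.17 and -0.17 in GFP cells and by 0.32 (-0.10 as deposited) and -0.12 in shRNA cells. The values for shRNA cells rest on the cicb CSS array, whose part in them was not tested.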

How the results depend on the processing

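No paired analysis was possible because each condition has 1 array. No change of 2-fold or more changed sign under the alternatives run. Smaller changes did, as given for ARNT and TIPARP, and NQO1 (201468_s_at) in cicb CSS against cicb FCS went from 0.42, beyond its spread of 0.41, to -0.06 as deposited. With a floor of 100, which lies above the signal of AHR in GFP cells, AHR was bounded at 0.46 for cicb FCS against GFP FCS and at 0.42 for cicb CSS against either GFP array, CYP1A1 at 0.19 for cicb FCS, and 0 member probe sets were 2-fold higher in these 3 comparisons. With 3-fold in place of 2-fold, 1 member probe set was higher and 0 lower in cicb FCS, and 0 were higher in cicb CSS against GFP CSS. With a signal of at least 100 on 1 array, which AHR and CYP1A1 reached only in cicb cells, 2 were higher in the latter. With the values as deposited, 2 member probe sets, both of NQO1, were lower in cicb CSS against GFP FCS, 0 higher against GFP CSS and 1 lower against cicb FCS. AHR changed by -0.59 in cicb CSS against cicb FCS, and NQO1 (210519_s_at) by -0.73, -0.53 and -0.10 in cicb CSS against GFP FCS, GFP CSS and cicb FCS.

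For the shRNA, the limma model called 2 member probe sets as reported, 0 without the trend, 0 as deposited, 1 with a floor of 100 and 1 without the filter. For CSS it called 1 as reported, 0 without the trend and 0 with a common median. Over all probe sets it called 429 for the shRNA and 306 for CSS as reported, 66 and 42 as deposited, 199 and 100 with a common median, and 0 and 0 without the trend. The cause of these differences was not tested. AHR had a limma adjusted p of 0.437 as deposited, 0.0869 with a floor of 100 and 0.0504 without the filter (range 0.00017 to 0.748), NQO1 (201468_s_at) 0.297 as deposited, and PTGES3 0.554 with a common median. For AHR 3 of 7 alternatives were under 0.05. Its range includes the filter at a signal of 100, which AHR met only through the cicb arrays, so no conclusion is drawn from its low end. Normalization without cicb CSS moved none of the 25 results it covered beyond their spread or threshold. It covered only comparisons among the other arrays, and no change on cicb CSS and no limma result, so it tells nothing about those. Low signal limits AHR and CYP1A1, which were dim in GFP cells, and CYP1B1 and ALDH3A1, which were near or under the floor.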
